A study of Aedes aegypti with 12 samples.

Results

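Fat body libraries of the yellow fever mosquito Aedes aegypti differed from each other along an axis that mixed both genotypes: some held more transcript of ribosomal proteins and little transcript of ovary genes, and the others the reverse. Of the 12 libraries of the series, 6 were made from fat body and 6 from brain. Of the 6 fat body libraries, 3 had a high ribosomal protein share and a low ovary share and are called ribosomal-high: wild-type replicate 1 and mutant replicates 1 and 3. The other 3 are called ovary-high: wild-type replicates 2 and 3 and mutant replicate 2. The 2 sides were chosen from the measured ribosomal protein and ovary transcript levels of these same libraries, so every difference between them is given as a description, with no test. Values for the 6 libraries are listed throughout in the order wild type 1, mutant 1, mutant 3 (ribosomal-high), then wild type 2, wild type 3, mutant 2 (ovary-high).

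The wild type was the Liverpool strain, and the mutant strain was altered in AaegGr34, which encodes a taste receptor. Mosquitoes of both strains had access to a 10% sucrose solution, and the colonies were blood-fed through a membrane. The sources used here do not give sex, age or feeding state at dissection, the lesion in AaegGr34 or the number of animals behind a library. Libraries were made from fragmented polyA RNA, with 3 in each genotype and tissue, described by the submitters as biological replicates.

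In insects the fat body does the work of liver and adipose tissue, holding lipid and glycogen stores and exporting most blood proteins. In mosquito females it builds up its ribosomes before a blood meal and then makes yolk precursors, chiefly vitellogenin, which travel through the blood to the ovary. The ovary lies in the abdomen beside the fat body, takes up yolk through the vitellogenin receptor and wraps each egg in a vitelline membrane and a chorion. Its germ cells and nurse cells carry their own set of transcripts, such as vasa, oskar and the genes of the piwi pathway, which silences transposons.

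Total gene counts were 18.5 M to 24.3 M in the 6 libraries, and 10772 to 12087 genes had at least 10 counts. The targeted gene, gustatory receptor 34 (LOC5570009), had 2, 2 and 2 counts in the ribosomal-high libraries and 4, 16 and 11 in the ovary-high ones, too few to enter a test, so it does not check the genotype labels. Fat body markers held 1.24% to 2.49% of counts in these libraries and 0.159% to 0.257% in the brain libraries. In bulk RNA, fewer cells of a type and less RNA per cell cannot be told apart.

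Genes for cytosolic ribosomal proteins, the protein component of the translating ribosome, held 33.7%, 37.0% and 28.4% of all gene counts in the ribosomal-high libraries and 26.4%, 24.5% and 22.1% in the ovary-high ones. Ovary and germline genes held 0.128%, 0.191% and 0.284% against 0.484%, 0.682% and 0.719%. These are the values that set the sides, and each side held both genotypes. The libraries nearest the divide were mutant replicate 3 (28.4% and 0.284%) and wild-type replicate 2 (26.4% and 0.484%). In the brain libraries ribosomal proteins held 7.25% to 10.9% of counts and ovary genes 0.0783% to 0.0917%. Yolk genes overlapped between the sides, at 0.0143%, 0.00595% and 0.0112% against 0.0126%, 0.00961% and 0.0105%.

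**Figure D1:**
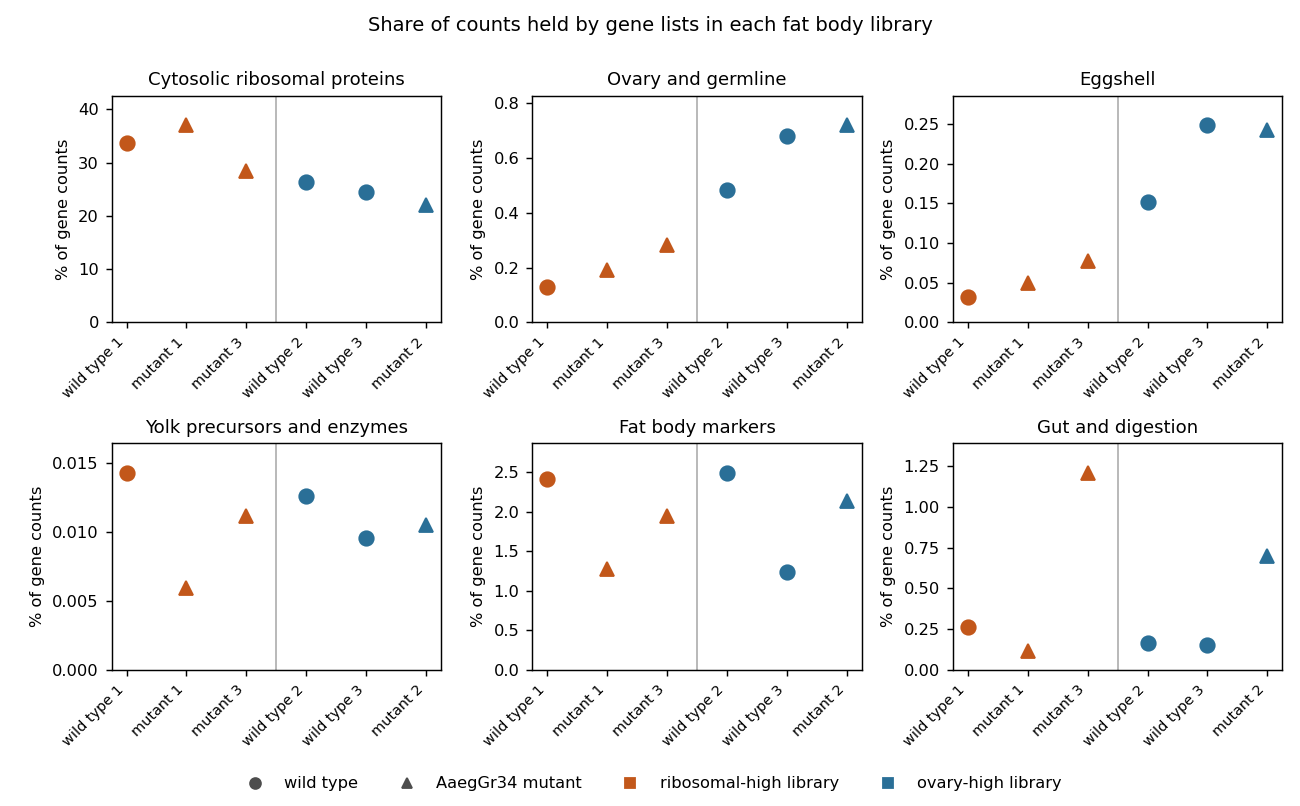
Share of gene counts (percent, linear axes from 0) held by 6 gene lists in each fat body library, 1 point per library, circles for wild type and triangles for the mutant, ribosomal-high libraries to the left of the line. Ribosomal, ovary and eggshell shares did not overlap between the sides, while yolk, fat body marker and gut shares did.

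Each gene's level was taken as CPM, a gene's counts over the effective library total, after TMM scaling, which sets libraries to a common level over the bulk of their genes. Between the sides it was described by the median of the 9 pairwise log2 ratios, each a ribosomal-high over an ovary-high library. A gene had no overlap where all 3 libraries of a side lay above all 3 of the other. Of 11558 genes tested, 2298 (19.9%) were higher in all 3 ribosomal-high libraries and 2722 (23.6%) were higher in all 3 ovary-high ones. With a gap of at least 2-fold between the sides, the counts were 35 (0.303%) and 75 (0.649%). Many genes thus separated the sides, few by a wide gap. Under each of 5 scalings 139 genes were ribosomal-high and 2692 ovary-high.

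The scaling decided much of this split. The TMM factors were 0.727, 0.745 and 0.983 in the ribosomal-high libraries and 1.14, 1.27 and 1.30 in the ovary-high ones, so they followed the sides. The median gene differed by 0.05 (log2) under TMM and 0.06 under DESeq2 size factors, but by -0.54 when counts were divided by library size alone. It differed by -0.36 when the ribosomal protein genes were left out of the library size, and by -0.71 in the deposited TPM. The split moved from 2298 and 2722 under TMM to 2345 and 2727 with DESeq2 size factors, 735 and 4457 without ribosomal protein genes in the library size, 381 and 5144 with library size alone and 139 and 5903 in TPM. Of the genes tested, 345 were ribosomal-high under at least 1 scaling and ovary-high under another. With library size alone, library size without ribosomal protein genes and TPM, all 2722 genes that were ovary-high under TMM stayed so. Staying ovary-high under all 5 scalings therefore adds little to the TMM result. Over all genes, 3.3% were ribosomal-high and 44.5% ovary-high with library size alone, and 1.2% and 51.1% in TPM, against 19.9% and 23.6% under TMM. Counts for gene lists are to be read against these shares. Each list's median is also given relative to the median gene, written as its relative median. A scaling acts on all genes of a library alike, so taking off the median gene removes most of it. Close agreement of relative medians across scalings is therefore built in.

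**Figure D2:**
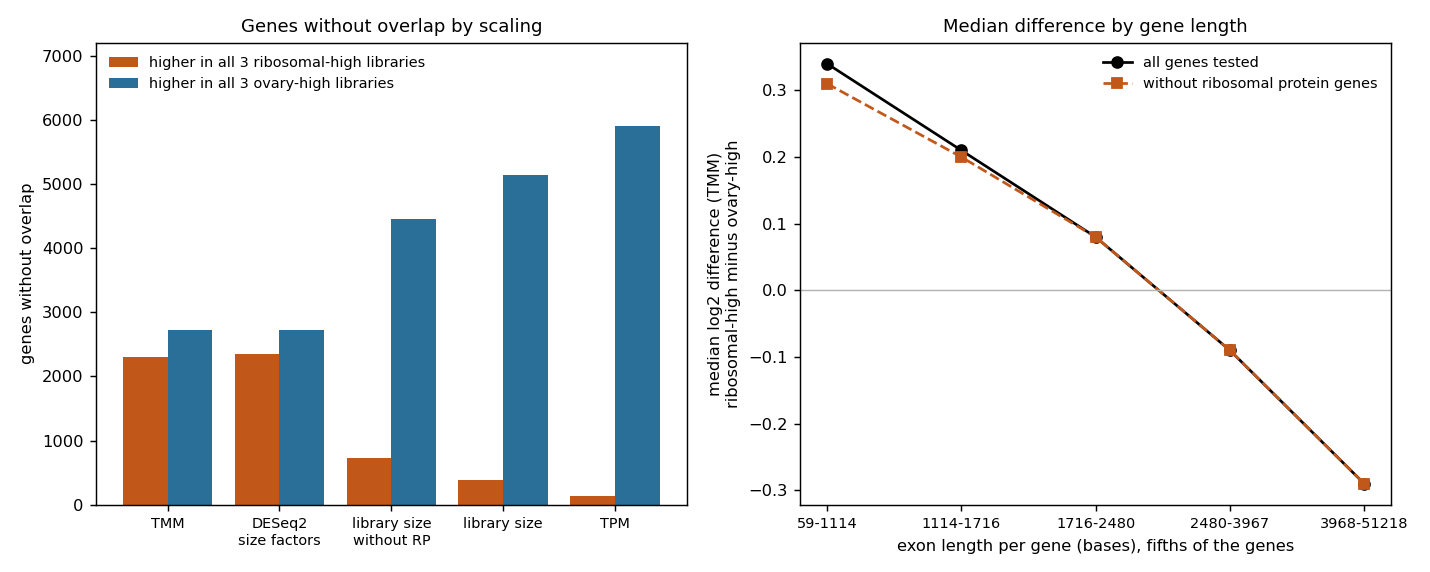
Left, number of genes (bars, from 0) higher in all 3 ribosomal-high or all 3 ovary-high libraries under 5 scalings, where RP means ribosomal protein genes. Right, median log2 difference between the sides (TMM) in 5 equal bins of genes by exon length in bases, from 0.34 in the shortest bin to -0.29 in the longest, with and without ribosomal protein genes.

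Cytosolic ribosomal proteins moved along the axis as a block. Of 98 genes in the list, 91 were tested, and 86 of them were higher in all 3 ribosomal-high libraries and 0 in the ovary-high ones, a direction that the choice of sides fixed. Their median difference was 1.11 on the log2 scale, with quartiles of 1.04 and 1.17 and all tested members between 0.86 and 1.29. Relative to the median gene it was 1.06 under TMM and 0.93 to 1.05 under the other scalings. The 5 tested members that overlapped were P1 (LOC5565839), L31 (LOC5568260), S28 (LOC5568465), S12 (LOC5573217) and S3a (LOC5577309), in each of which wild-type replicate 2 lay just above mutant replicate 3. Within genotypes the median was 1.13 in wild type and 1.14 in the mutant. By scaling the number without overlap was 86 with TMM, 62 with library size and 44 in TPM, and no member was ovary-high under any of the 5.

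S2 (LOC5572968), a protein of the small subunit and the list's most abundant member at a mean of 13000 TPM, stood at 14700, 17300 and 10100 CPM against 7700, 6320 and 5690 CPM. L34 (LOC5571846), of the large subunit, had 3640, 4510 and 2740 CPM against 1780, 1500 and 1560 CPM. In both genes mutant replicate 1 was highest and mutant replicate 3 was the lowest of its side, with no overlap under any of the 5 scalings. S2 lies on chromosome 3 at 149352734 to 149354357 (AaegL5.0, minus strand, 3 exons). L34 overlaps another annotated gene. Both genes had fractional counts, so reads may be shared with other features and their levels are uncertain to that extent.

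Translation factors followed in part. Of 43 tested, 27 (62.8%) were ribosomal-high without overlap and 0 ovary-high under TMM, where all genes had 19.9% and 23.6%. The counts were 13 and 13 with library size and 8 and 14 in TPM, and 3 members changed sides with the scaling. The relative median was 0.58 under TMM and 0.49 to 0.56 under the other scalings. Elongation factor 1-alpha (LOC23687516), which brings aminoacyl-tRNA to the ribosome, had 45900, 48300 and 34700 CPM against 22500, 22000 and 19100 CPM. Elongation factor 2 (LOC5564921), which moves the ribosome along the mRNA, had 27100, 26300 and 17900 CPM against 13300, 11400 and 10400 CPM. Both were ribosomal-high under all 5 scalings.

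Genes that assemble ribosomes lay on both sides. Of 74 tested, 6 (8.11%) were ribosomal-high and 15 (20.3%) ovary-high without overlap under TMM, against 19.9% and 23.6% of all genes. The relative median was -0.10. Under library size alone the counts were 5 and 51, where all genes had 3.3% and 44.5%. The most abundant members were ribosomal-high. Ribosome biogenesis protein NSA2 homolog (LOC5578155), which overlaps another annotated gene, had 7680, 7480 and 4490 CPM against 3740, 3100 and 2740 CPM and kept its side under 4 of 5 scalings. Nucleolar GTP-binding protein 1 (LOC5572534), a factor of large-subunit assembly, had 4810, 5210 and 3320 CPM against 2040, 1990 and 1840 CPM, ribosomal-high under all 5. Nucleolar protein 14 (LOC5579213), needed for small-subunit processing in yeast, had 26.5, 31.6 and 36 CPM against 53.8, 60.7 and 65.3 CPM, which is ovary-high under all 5 scalings. Mitochondrial ribosomal proteins, which translate the mitochondrial genome, had a relative median of 0.22 under TMM and 0.18 to 0.22 under the others. Under TMM 13 of 78 (16.7%) were ribosomal-high and 0 ovary-high. The counts were 1 and 29 with library size and 0 and 49 in TPM, where 44.5% and 51.1% of all genes were ovary-high. Aminoacyl-tRNA synthetases, which charge tRNAs, had 13 of 26 ribosomal-high and 1 ovary-high under TMM and 0 and 17 in TPM, with a relative median of 0.35 under TMM and 0.28 to 0.41 under the others.

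**Figure D3:**
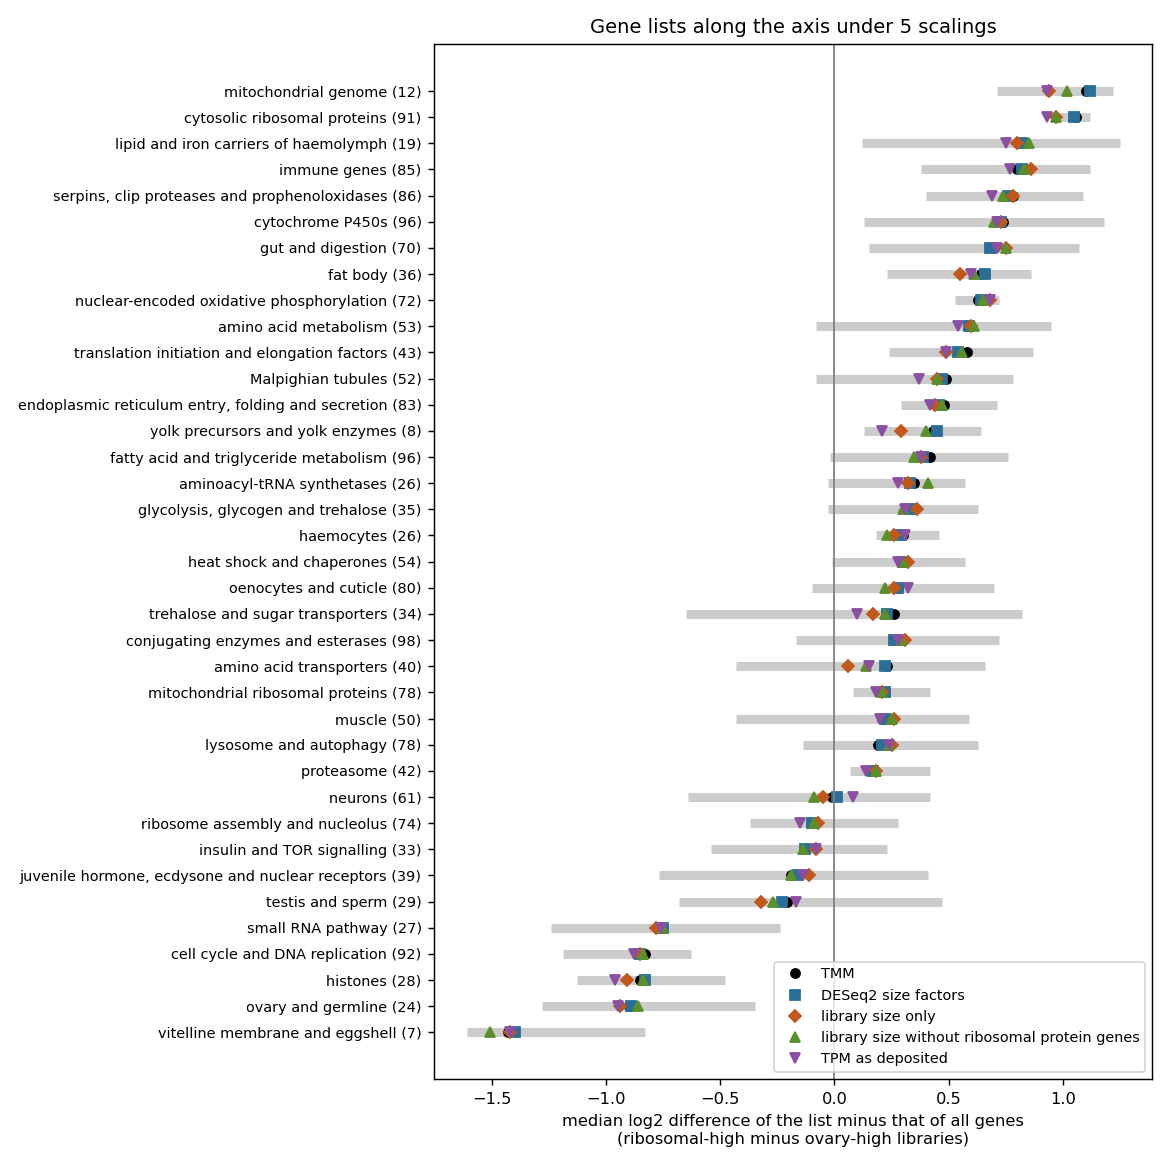
Median log2 difference between the sides (ribosomal-high minus ovary-high) of each gene list with at least 7 tested genes, minus the median of all genes, under 5 scalings (symbols), with the number of tested genes in brackets. Grey bars run between the quartiles of the members under TMM. Cytosolic ribosomal proteins lie at 0.93 to 1.06 and ovary and germline genes at -0.95 to -0.86. Taking off the median of all genes removes most of what the scalings change, so close symbols are built in.

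Nuclear-encoded subunits of oxidative phosphorylation, the ATP-making chain of mitochondria, lay above the median gene by 0.63 under TMM and by 0.64 to 0.68 under the other scalings. Of 72 tested, 43 (59.7%) were ribosomal-high without overlap and 0 ovary-high under TMM, against 19.9% and 23.6% of all genes. The counts were 4 and 2 with library size, where all genes had 3.3% and 44.5%. In TPM they were 0 and 4, where all genes had 1.2% and 51.1%. Cytochrome c oxidase subunit 5A (LOC5565701) had 365, 469 and 331 CPM against 183, 165 and 223 CPM. The endoplasmic reticulum and secretion list covers the machinery through which the fat body exports proteins. It had 60 of 83 (72.3%) ribosomal-high and 2 (2.41%) ovary-high under TMM. It had 7 and 9 with library size and 0 and 19 in TPM, against the same shares of all genes. Its relative median was 0.48 under TMM and 0.42 to 0.47 under the others. Protein disulfide-isomerase (LOC5565441), a folding enzyme that overlaps a gene on the other strand, had 1950, 1650 and 1540 CPM against 1010, 955 and 822 CPM, while calreticulin (LOC5567839), a folding chaperone, overlapped at 850, 1080 and 1560 CPM against 471, 858 and 524 CPM.

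Genes of the secreted protease cascades of insect blood lay well toward the ribosomal-high side. Serpins, clip proteases and prophenoloxidases had 46 of 86 (53.5%) ribosomal-high and 0 ovary-high under TMM, against 19.9% and 23.6% of all genes. The counts were 12 and 3 with library size and 4 and 5 in TPM, where 44.5% and 51.1% of all genes were ovary-high. The list's relative median was 0.78 under TMM and 0.69 to 0.78 under the others. A snake-like serine protease (LOC110674731) had 252, 223 and 214 CPM against 104, 77.3 and 41.1 CPM, a gap of 2.05-fold under TMM. It was ribosomal-high under all 5 scalings and overlaps another annotated gene. Immune genes had 31 of 85 (36.5%) ribosomal-high and 4 (4.71%) ovary-high under TMM, and 1 and 15 in TPM. Their relative median was 0.80 under TMM and 0.77 to 0.86 under the others. Holotricin-3 (LOC23687956), an antimicrobial peptide named from a beetle, did not follow the sides (1800, 466 and 542 CPM against 483, 485 and 293 CPM).

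Among described genes whose mean reached 20 CPM, the widest ribosomal-high gap belonged to allantoicase (LOC5579205), an enzyme of purine and urate breakdown. It had 57.0, 81.9 and 57.9 CPM against 20.7, 18.9 and 18.4 CPM, a gap of 2.75-fold on chromosome 1 at 220406481 to 220407837 (AaegL5.0, minus strand, 2 exons). Maltase A3 (LOC5565449), which splits maltose, had 33.9, 42.4 and 33.2 CPM against 14.0, 13.1 and 12.3 CPM. Both had whole-number counts and were ribosomal-high under all 5 scalings. Hexokinase type 2 (LOC5571932), the first enzyme of glycolysis, had 993, 867 and 843 CPM against 306, 383 and 398 CPM, a gap of 2.12-fold under TMM. Its sides had no overlap under 4 of 5 scalings. The 2 most abundant genes of the glycolysis, glycogen and trehalose list had overlapping sides. Enolase (LOC5571664) had 1270, 599 and 751 CPM against 912, 379 and 706 CPM. Fructose-bisphosphate aldolase (LOC5567031) had 1920, 836 and 997 CPM against 947, 624 and 858 CPM. Of 35 genes for glycolysis, glycogen and trehalose, 7 were ribosomal-high and 4 ovary-high under TMM, where all genes had 19.9% and 23.6%. The ribosomal-high count was thus close to the share of all genes. In TPM the counts were 0 and 9, where all genes had 1.2% and 51.1%. The list's relative median was 0.34 under TMM and 0.30 to 0.36 under the others. Lists were drawn by words in gene descriptions. The 4 ovary-high genes under TMM thus include enolase-phosphatase E1 genes LOC110681150 and LOC5567790, which are not enzymes of glycolysis.

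Cytochrome P450s, which act in detoxification and in hormone and lipid metabolism, mostly lay toward the ribosomal-high side. Of 96 tested, 32 (33.3%) were ribosomal-high and 8 (8.33%) ovary-high under TMM, against 19.9% and 23.6% of all genes, and 14 and 15 with library size and 6 and 18 in TPM. The relative median was 0.74 under TMM and 0.70 to 0.73 under the others, with 76 members above 0 and 20 below before the median gene was taken off. A probable P450 6a14 (LOC5565578) had 43.0, 19.6 and 28.8 CPM against 7.52, 7.01 and 7.05 CPM, and P450 4d2 (LOC5572942) had 37.1, 45.4 and 44.6 CPM against 16.2, 16.2 and 16.8 CPM. P450 307a1 (LOC5572380), whose Drosophila relative spook acts in ecdysteroid synthesis, had 2.04, 4.85 and 3.24 CPM against 6.70, 15.2 and 7.57 CPM. Each of the 3 kept its side under all 5 scalings, though the first pair overlap other annotated genes.

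Amino acid metabolism had 21 of 53 genes (39.6%) ribosomal-high and 5 (9.43%) ovary-high under TMM, against 19.9% and 23.6% of all genes. The counts were 9 and 9 with library size and 2 and 10 in TPM, where 44.5% and 51.1% of all genes were ovary-high. The relative median was 0.59 under TMM and 0.54 to 0.61 under the others. S-adenosylmethionine synthase (LOC5564925), which makes the cell's methyl donor, had 15300, 17000 and 11500 CPM against 8040, 7980 and 5810 CPM. Glycine N-methyltransferase (LOC5576784), which spends that donor, had 95.5, 36.4 and 33.7 CPM against 17.9, 17.5 and 16.0 CPM. Wild-type replicate 1 was the highest library in the latter and mutant replicate 1 in the former, with no overlap in either under 4 of 5 scalings. L-threonine 3-dehydrogenase (LOC5578114), a mitochondrial enzyme of threonine breakdown, lay the other way under all 5 (9.06, 24.7 and 26.2 CPM against 40.7, 46.6 and 37.2 CPM).

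Fat body markers leaned toward the ribosomal-high side gene by gene, while their summed share overlapped. Of 46 in the list, 36 were tested, and 10 (27.8%) were ribosomal-high and 0 ovary-high under TMM, against 19.9% and 23.6% of all genes, 3 and 3 with library size and 0 and 4 in TPM. The relative median was 0.64 under TMM and 0.55 to 0.66 under the others, and 30 of the 36 had a median difference above 0 under TMM. Their summed share was 2.41%, 1.28% and 1.95% against 2.49%, 1.24% and 2.14%. The lowest values fell in mutant replicate 1 and wild-type replicate 3, which stand on opposite sides. Among the 10, apolipophorins (LOC5572681), the precursor of the protein shell of the blood's lipid carrier, had 3600, 2890 and 3670 CPM against 1690, 1500 and 1480 CPM. It lies on chromosome 3 at 77687304 to 77708562 (AaegL5.0, plus strand, 10 exons) and kept its side under 4 of 5 scalings. Arginase (LOC5575552), which cleaves arginine to urea and ornithine, had 298, 189 and 153 CPM against 82.3, 105 and 45.8 CPM.

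Abundant genes of fat storage had overlapping sides. Fatty acid synthase LOC5568814, the most abundant fat body marker at a mean of 1540 TPM, had 18300, 7480 and 9670 CPM against 13200, 3690 and 10100 CPM. Lipid storage droplets surface-binding protein 1 (LOC5567287), which coats lipid droplets, had 1490, 1050 and 1030 CPM against 1040, 559 and 817 CPM. An acyl-CoA Delta(11) desaturase (LOC5577524) had 10300, 6790 and 6120 CPM against 6640, 2630 and 5380 CPM. All 3 overlapped, and all 3 were lowest in wild-type replicate 3. Over 96 genes of fatty acid and triglyceride metabolism, 29 (30.2%) were ribosomal-high and 6 (6.25%) ovary-high under TMM, against 19.9% and 23.6% of all genes, 5 and 25 with library size and 0 and 32 in TPM. The relative median of that list was 0.42 under TMM and 0.35 to 0.39 under the others, with 74 members above 0 under TMM.

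No yolk gene separated the sides under TMM. Of 9 genes for yolk precursors and yolk enzymes, 8 were tested and 0 had no overlap under TMM; under DESeq2 size factors 1 was ribosomal-high, and under each of the other 3 scalings 1 was ovary-high. The relative median was 0.43 under TMM and 0.21 to 0.45 under the others, and 6 of the 8 lay above 0 under TMM. Vitellogenin-1 (LOC5567092) had 110, 28.0 and 57.2 CPM against 51.4, 29.8 and 36.5 CPM, so mutant replicate 1 was the lowest library and wild-type replicate 1 the highest, both ribosomal-high. Vitellogenin-3 (LOC5567373), which overlaps a gene on the other strand, had 59.0, 33.8 and 31.1 CPM against 38.7, 24.9 and 30.3 CPM. In brain libraries, scaled among themselves, the same pair stood at 59.6 to 91.5 and 57.1 to 90.8 CPM. Vitellogenin-A1 (LOC5573342), the gene named for the major yolk precursor, had under 1 CPM in every fat body library, the highest being 0.834 CPM in wild-type replicate 3.

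Hexamerins are storage proteins of insect blood. Of 8 in the list 2 passed the filter on low counts, and hexamerin-1.1 LOC5579047 had 45, 62.4 and 77.6 CPM against 26.5, 13.7 and 42.6 CPM, a gap of only 1.06-fold under TMM. Its sides overlapped under 3 of the 5 scalings. The lipid and iron carriers of the blood had 6 of 19 (31.6%) ribosomal-high and 1 (5.26%) ovary-high under TMM, against 19.9% and 23.6% of all genes. The counts were 3 and 4 with library size and 1 and 5 in TPM, where 44.5% and 51.1% of all genes were ovary-high. The relative median was 0.83 under TMM and 0.75 to 0.85 under the others. Soma ferritin LOC5580073 had 338, 364 and 223 CPM against 158, 142 and 115 CPM under TMM, ribosomal-high under all 5 scalings. Ferritin subunit LOC5569124 had 1810, 2150 and 1150 CPM against 1020, 687 and 737 CPM, with no overlap under 2 of 5, and transferrin (LOC5579417) overlapped at 1530, 180 and 311 CPM against 496, 882 and 91.2 CPM.

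**Figure D4:**
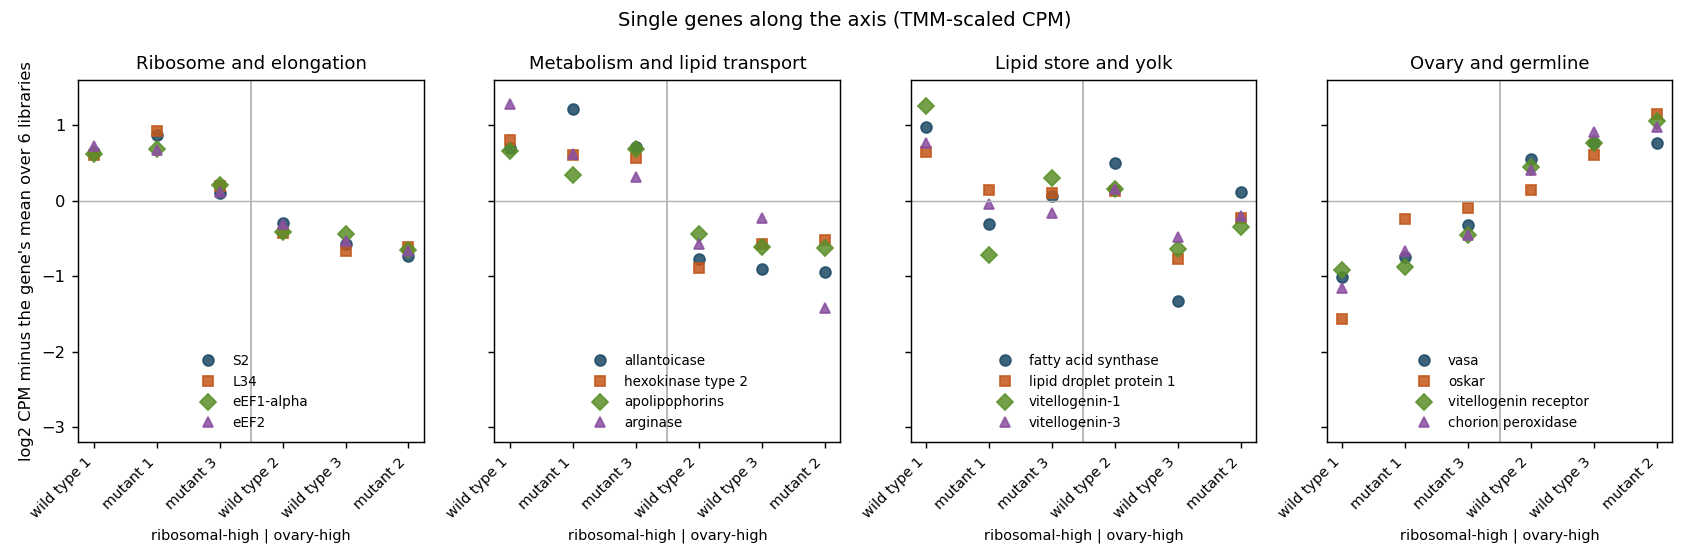
log2 CPM (TMM) of single genes in each fat body library, each minus its mean over the 6 libraries, with ribosomal-high libraries to the left of the line. Ribosomal and elongation genes, and the metabolic genes in the second panel, lie higher on the left and ovary genes higher on the right, while fatty acid synthase and the vitellogenins have overlapping sides.

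Ovary and germline genes made the other end of the axis. Of 32 in the list 24 were tested; 19 were ovary-high without overlap and 1 ribosomal-high under TMM, and 18 were ovary-high under every one of the 5 scalings. Their median was -0.90 relative to all genes under TMM and -0.95 to -0.86 under the others, and -1.5 within wild type against -0.89 within the mutant before that median was taken off. As with the ribosomal proteins, the choice of sides fixed this direction.

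Vasa (LOC5565755), an RNA helicase of the germ line, had 245, 296 and 398 CPM against 728, 845 and 840 CPM. It lies on chromosome 2 at 281679164 to 281700584 (AaegL5.0, minus strand, 6 exons). Oskar (LOC5577338), which assembles germ plasm in Drosophila, had 157, 393 and 433 CPM against 510, 707 and 1030 CPM. The putative vitellogenin receptor (LOC5569465), through which oocytes take up yolk, had 219, 226 and 302 CPM against 567, 706 and 864 CPM. All 3 genes were lowest in wild-type replicate 1, vasa was highest in wild-type replicate 3 and the others in mutant replicate 2, and none overlapped. Oskar and the receptor were at most 0.596 and 0.0852 CPM in any brain library, while vasa stood at 9.86 to 13.9 CPM there.

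The piwi family did not move as 1 group. Aubergine genes LOC5578405 (34.4, 69.8 and 75.5 CPM against 149, 123 and 170 CPM) and LOC5570107 (9.11, 30.3 and 40.6 CPM against 53.8, 67.2 and 94.9 CPM) were ovary-high and at most 0.639 CPM in brain. A further copy, LOC5577490, was the only ribosomal-high member of the ovary list (127, 107 and 115 CPM against 79.0, 72.6 and 72.1 CPM) and stood at 70.4 to 78.9 CPM in brain. It overlaps another annotated gene, had counts that were not whole numbers, and kept its side under 3 of 5 scalings. The copy LOC5569521 overlapped between the sides.

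Over the whole small RNA list, 19 of 27 tested genes (70.4%) were ovary-high without overlap and 3 (11.1%) ribosomal-high under TMM. The shares of all genes were 23.6% and 19.9%. The list shares members with the ovary list, vasa and maelstrom among them, so the choice of sides fixed part of this direction. Putative helicase mov-10-B.1 (LOC5571915), a relative of the small RNA helicase Armitage, had 11.4, 12.9 and 14.8 CPM against 39.9, 40.7 and 36.8 CPM. The gap of 2.49-fold under TMM was the widest ovary-high one among described genes whose mean reached 20 CPM, and the gene was ovary-high under all 5 scalings. Maelstrom (LOC5570832), a piwi pathway protein, had 31.3, 75.6 and 79.3 CPM against 153, 158 and 174 CPM. Argonaute-2 (LOC5566763), the effector of the siRNA pathway in the body, had a median difference of -0.01 and overlapped.

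Most tested eggshell genes were ovary-high. Of 17 in the list 7 were tested, and 5 (71.4%) were ovary-high without overlap and 0 ribosomal-high, under each of the 5 scalings. Of all genes, 23.6% were ovary-high under TMM. The list's relative median was -1.43 under TMM and -1.51 to -1.40 under the others. The other two were low and overlapped: chorion peroxidase LOC5575607 reached 1.46 CPM and a vitelline membrane gene (LOC5568248) 0.891 CPM. Chorion peroxidase (LOC5564684), which hardens the eggshell, had 168, 236 and 275 CPM against 495, 702 and 739 CPM. Torso-like protein (LOC5573380), known from the Drosophila egg chamber, had 8.61, 11.7 and 11 CPM against 25.3, 27.8 and 23.6 CPM, and stood higher in brain, at 30.4 to 44.9 CPM. The vitelline membrane protein genes differed from these: 15a-2 (LOC23687823) and a 15a-3-like gene (LOC110675202) had no count in any fat body library, and the highest value of the others was the 0.891 CPM of LOC5568248 in wild-type replicate 3. Chorion peroxidases LOC5564684, LOC5564679, LOC5564683 and LOC5564694, all ovary-high, sit on chromosome 1 between 235764607 and 235842907 (AaegL5.0). The first pair had fractional counts, so reads may be shared between copies.

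Cell division genes followed the ovary genes, although the rule did not name them. Of 92 tested, 74 (80.4%) were ovary-high without overlap and 2 ribosomal-high under TMM, against 23.6% of all genes ovary-high. The same 74 were ovary-high under all 5 scalings, as were 2692 of the 2722 genes ovary-high under TMM. Of the 2 ribosomal-high members, LOC5571822 is described as a tetracycline resistance protein. Cyclin B (LOC5572876), which drives entry into mitosis and meiosis, had 45.3, 104 and 133 CPM against 200, 278 and 267 CPM. Cyclin B3 (LOC5572162) had 41.6, 81.3 and 92.6 CPM against 171, 176 and 179 CPM, and was at most 1.68 CPM in brain. Of 28 histone genes tested, 10 (35.7%) were ovary-high and 2 (7.14%) ribosomal-high under TMM, against 23.6% and 19.9% of all genes. With library size they were 10 and 0, where 44.5% of all genes were ovary-high. An H3.3 gene (LOC5574772) had 11.5, 19.9 and 23.3 CPM against 47.4, 65.9 and 43.8 CPM, while another H3.3 gene (LOC5567559) lay at 273, 422 and 284 CPM against 243, 201 and 230 CPM.

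Among the genes with the widest ovary-high gaps were several RNA regulators. Meiosis regulator and mRNA stability factor 1 (LOC5571658), needed for oocyte meiosis in the mouse, had 24.1, 33.4 and 63.8 CPM against 151, 280 and 151 CPM, a gap of 2.36-fold under TMM. A cytoplasmic polyadenylation element-binding protein (LOC5574593), of the family that controls maternal mRNA tails, had 93.4, 109 and 130 CPM against 271, 351 and 307 CPM. Boule (LOC5571818), a germ cell RNA-binding protein, had 14.5, 22.0 and 39.5 CPM against 76.5, 87.6 and 82.6 CPM. A Werner helicase-like gene (LOC110674056), of a family of DNA helicases, had 11.2, 11.2 and 13.4 CPM against 32.2, 43.8 and 30.5 CPM, and tenascin (LOC5567181) had 54, 109 and 110 CPM against 221, 238 and 222 CPM. Each of these genes kept its side under all 5 scalings, and the first was at most 0.292 CPM in brain.

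Hormone and nutrient signalling lists lay near the median gene, with counts not far from the shares of all genes. Of 39 genes for juvenile hormone, ecdysone and nuclear receptors, 5 (12.8%) were ribosomal-high and 12 (30.8%) ovary-high under TMM, against 19.9% and 23.6% of all genes, and 1 and 19 with library size. The relative median was -0.19 under TMM and -0.19 to -0.11 under the others. The ecdysone receptor (LOC5572184) had 35.4, 37.9 and 55.8 CPM against 81.0, 94.7 and 101 CPM; it overlaps a gene on the other strand. In the insulin and TOR list, 8 of 33 (24.2%) were ribosomal-high and 11 (33.3%) ovary-high under TMM, and 1 and 18 with library size, with a relative median of -0.13 under TMM and -0.14 to -0.08 under the others. The 4E-binding protein gene (LOC5572651), a brake on translation that TOR releases, had 601, 628 and 491 CPM against 321, 361 and 334 CPM, ribosomal-high under 3 of 5 scalings. The TORC1 subunit gene mip1 (LOC5568448), the counterpart of raptor, had 5.83, 6.46 and 6.43 CPM against 15.4, 21.3 and 13.7 CPM, ovary-high under all 5. Forkhead box protein O (LOC5576867), which insulin signalling holds out of the nucleus, had 94.9, 97.2 and 94.5 CPM against 46.8, 61.9 and 71.7 CPM, a side kept under 2 scalings; it overlaps a gene on the other strand.

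Markers of other tissues were read beside the axis, and their part in it was not tested. Gut and digestion genes held 0.264%, 0.117% and 1.21% of counts against 0.163%, 0.155% and 0.697%, overlapping between the sides, with mutant replicates 2 and 3 highest. Trypsin 3A1 (LOC5569681), a digestive protease, had 433, 4.91 and 4350 CPM against 31.5, 48.8 and 2150 CPM. Its gene list had a median of 1.22 within wild type and -0.61 within the mutant, opposite in sign in the 2 genotypes. Over both, its relative median was 0.70 under TMM and 0.68 to 0.75 under the others. Muscle genes held 0.450%, 0.397% and 0.481% against 0.754%, 0.489% and 0.578%, and neuron genes 0.134%, 0.174% and 0.195% against 0.209%, 0.197% and 0.238%. Neither share overlapped, both being higher in the ovary-high libraries by a narrow margin. The neuron list holds CUGBP Elav-like family member 2 (LOC5565883), at 155, 294 and 323 CPM against 597, 502 and 592 CPM. That gene had only 5.27 to 10.9 CPM in brain. A titin homolog in the muscle list (LOC5564490) had 35.3, 33.1 and 60.1 CPM against 89.8, 105 and 121 CPM. Whether either gap reflects more nerve or muscle was not tested. In CPM under TMM, 2 of 50 muscle genes were ribosomal-high and 9 ovary-high, and for neurons 9 and 5 of 61, with relative medians of 0.21 and -0.01. Haemocyte genes had 3 (11.5%) and 1 (3.85%) of 26 and a relative median of 0.30, and Malpighian tubule genes 22 (42.3%) and 4 (7.69%) of 52 and 0.49. Haemocyte genes held 0.137%, 0.0872% and 0.160% against 0.177%, 0.124% and 0.163%, and Malpighian tubule genes 0.356%, 0.290% and 0.413% against 0.395%, 0.368% and 0.382%. Mitochondrial 16S ribosomal RNA held 0.422%, 0.649% and 0.304% against 0.694%, 0.248% and 0.389%, so it did not sort by side.

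Mitochondrially encoded genes had a relative median of 1.10 under TMM and 0.93 to 1.12 under the others, close to that of the cytosolic ribosomal proteins. Their tested members were mostly very short, with a median length of 68 bases. Their summed share overlapped between the sides, at 0.429%, 0.658% and 0.311% against 0.704%, 0.252% and 0.396%. Of 12 tested, 7 were ribosomal-high and 0 ovary-high under TMM, and 0 and 0 with library size, and 12 lay above 0 under TMM. Over all genes the shares were 19.9% and 23.6% under TMM and 3.3% and 44.5% with library size, also for the lists that follow. The remaining lists had relative medians of -0.21 to 0.30 under TMM. Heat shock proteins and chaperones had 20 and 3 of 54 under TMM and 2 and 17 with library size, and the proteasome, which degrades proteins, had 14 and 2 of 42 under TMM and 0 and 29 with library size. Lysosome and autophagy genes had 28 and 8 of 78, and 5 and 30 with library size. Amino acid transporters had 6 and 8 of 40, sugar transporters 7 and 5 of 34, conjugating enzymes and esterases 27 and 8 of 98, and cuticle and oenocyte genes 15 and 6 of 80 under TMM. With library size these 4 lists had 0 and 13, 1 and 13, 2 and 30, and 1 and 13. Testis and sperm genes had 4 (13.8%) ribosomal-high and 10 (34.5%) ovary-high of 29 under TMM, against 19.9% and 23.6% of all genes. The 10 were ovary-high under all 5 scalings. With library size the list had 1 and 12, where 44.5% of all genes were ovary-high.

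Gene length moved with the axis. Exon length per gene, taken from the ratio of deposited counts to TPM, had a median of 1673 bases in ribosomal-high genes, 2772 bases in ovary-high genes and 2056 bases in all genes tested. In 5 equal bins by length, the median difference under TMM was 0.34, 0.21, 0.08, -0.09 and -0.29 from the shortest to the longest. Without the ribosomal protein genes, which have a median length of 734 bases, the values were 0.31, 0.20, 0.08, -0.09 and -0.29. Oxidative phosphorylation genes (median length 794 bases) and mitochondrial ribosomal proteins (782 bases) lay above the median gene, by 0.63 and 0.22, as the shortest bins did. The part of length in the list differences was not tested.

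Position on the chromosomes did not set the 2 sets apart: chromosomes 1, 2 and 3 held 23.1%, 39.9% and 32.8% of ribosomal-high genes, 21.7%, 38.3% and 34.5% of ovary-high genes and 23.4%, 38.1% and 33.1% of all genes tested. Ribosomal-high genes held 51.9% to 74.2% of the counts of a fat body library and ovary-high genes 4.56% to 17.5%. In CPM on plain library totals, 915 of the ribosomal-high genes (39.8%) were lower in all 6 brain libraries than in all 6 fat body ones, as were 595 of the ovary-high genes (21.9%) and 23.0% of all genes tested. The other way, 28.9% of ribosomal-high genes, 14.4% of ovary-high genes and 26.2% of all genes tested were higher in all 6 brain libraries.

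None of the first 3 principal components separated the sides, and the share of variance along the axis itself was not measured. In a principal component analysis of log2 CPM, the first component held 35.6% of the variance and had overlapping sides, with library scores of -0.72, -0.18 and 0.20 against -0.05, 0.12 and 0.63. The second component held 30.6% and ran -0.06, -0.42 and -0.49 against 0.49, 0.58 and -0.10, also with overlap. The third held 21.6% and set mutant replicate 1 (0.78) apart from the rest, which lay between -0.44 and 0.11.

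The genotype comparison used nothing of the rule and was tested with edgeR's quasi-likelihood test on all 6 fat body libraries. Of 11558 genes, 27 (0.234%) were called at an adjusted p under 0.05, 16 higher and 11 lower in the mutant, and 907 had an unadjusted p under 0.05. Among ribosomal proteins, ovary and germline genes, eggshell genes, yolk genes, hexamerins and fat body markers, 0 were called. None of the 27 had sides without overlap, but each side mixed the genotypes, so a gene that separated them could not also separate the sides. S2 had a log2 fold change of 0.20 (mutant over wild type, SE 0.61, edgeR adjusted p 1.0), vasa one of -0.24 (SE 0.58, adjusted p 1.0) and vitellogenin-1 one of -0.65 (SE 0.51, adjusted p 1.0). Hexamerin-1.1 LOC5579047 had 1.10 (SE 0.45, edgeR adjusted p 0.608). Since the animals behind each library are not stated, these p-values reflect only how far the libraries scattered. Single libraries decided the count of calls: leaving out wild-type replicate 2, mutant replicate 1 or mutant replicate 3 gave 0, leaving out wild-type replicate 3 gave 3 and leaving out mutant replicate 2 gave 4.

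With the side added as a covariate, a choice made from the data, 277 genes (2.4%) were called in the genotype comparison, 136 higher and 141 lower, among them all 27. The side was set from ribosomal protein and ovary values of the same libraries, so a smaller spread in that fit follows from the rule and is no independent evidence. Fat body markers then had 0 called higher and 2 lower of 36.

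The rule had not used the brain libraries, which carry the same replicate numbers. Nothing in the labels ties a number to shared animals, and deviations from the group means in fat body and brain correlated at only -0.17 to 0.11 between libraries of the same number and genotype. Wild-type replicate 1 and mutant replicates 1 and 3 were compared with the other 3 brain libraries in edgeR, with genotype as a covariate. Of 11848 genes, 0 (0.0%) were called, the smallest adjusted p was 0.999, and 252 had an unadjusted p under 0.05, while DESeq2 called 1. The log2 difference was -0.13 (SE 0.24) for S2, -0.20 (SE 0.13) for elongation factor 1-alpha and -0.03 (SE 0.15) for vasa. Oskar, the vitellogenin receptor and chorion peroxidase LOC5564684 were too low in brain to be tested. With no stated tie between the numbers of both tissues, the absence of calls in brain says nothing of the fat body axis.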

How the data were processed

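Fat body and brain RNA of 2 mosquito strains was sequenced in 12 libraries. The authors deposited estimated counts per gene, of which 24.59% were not whole in fat body, and TPM values (transcripts scaled by length and depth). The submitters' processing notes name FastQC, STAR, featureCounts of Subread and DESeq2, without versions. For the genome build behind the counts, the sources used here name none. Positions are printed where the deposited table and the RefSeq AaegL5.0 gene table agreed (16991 of 18399 matched genes, of 19256). Whether counting used strand is not stated.

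The sides, gene lists and named genes were chosen with earlier results of these data known. Sides were described with TMM-scaled CPM (prior count 0.5), brain libraries being scaled among themselves. The expected counts as deposited were rounded and tested with edgeR 4.0.16 in R 4.3.3, by quasi-likelihood fits with genotype, after filterByExpr (minimum count 10, total 15) and with a threshold of 0.05 on Benjamini-Hochberg adjusted p. DESeq2 1.42.0, other scalings, filters and left-out libraries were alternatives. The fits were tested on simulated data.

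In each of 38 lists the rule named the 2 members with the highest TPM and, in each direction, the 2 with the widest gap and a mean of at least 5 CPM; over all genes it named 10 in each direction with a mean of at least 20 CPM. Of 193 such genes, 95 had fractional counts, 57 overlapped another gene and 39 of these an antisense one. The overlapping ribosomal proteins, arginase, vitellogenin-3, vitellogenin-A1, Argonaute-2, the vitelline membrane genes, LOC5564694 and aubergine LOC5578405, LOC5570107 and LOC5569521 fall outside that rule and were named after their values were seen. No replicate pair agreed within counting noise.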

Additional observations from a re-analysis of the deposited data

How the results depend on the processing

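Counts of genes higher in all 3 ribosomal-high or all 3 ovary-high libraries (2298 and 2722) became 381 and 5144 with library size alone, 735 and 4457 without ribosomal protein genes in the library size, 139 and 5903 in TPM, and 35 and 75 with a gap of at least 2-fold. Leaving out single libraries gave 2718 to 3082 and 2909 to 3484, where fewer libraries must separate. The median ratio of the ribosomal protein share between the sides was 1.37 in counts and 1.18 in TPM. The median of ribosomal proteins relative to all genes ranged from 0.79 to 1.26 when single libraries were left out. The genotype count of 27 was 277 with the side as covariate, 55 without the filter on low counts, 381 with DESeq2 and 0 to 37 when single libraries were left out. With the replicate block it was 54. The labels do not say that the numbers pair libraries. Same-numbered fat body libraries correlated at 0.16, 0.32 and -0.23, too few values of mixed sign to decide it. The brain count of 0 was 1 with DESeq2. The cause of these shifts was not tested. Precision is limited by 3 libraries a side.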
